A study of Mus musculus with 6 samples.

Results

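The values below describe 10 imprinted genes of fetal growth control in the neonatal mouse lung: H19, Igf2, Dlk1, Meg3, Peg3, Plagl1, Cdkn1c, Mest, Grb10 and Igf2r. All 10 were found by symbol among the 32285 genes of the count tables. They were chosen with earlier results of these same libraries known. Their low level after birth is taken as what chose them, so every value for age (postnatal day 21 against day 1) is a description and carries no test. The sources do not say which values entered the choice, so the hyperoxia tests below may run on values that did, and nothing is read from them about the members as a set. Lungs of wild-type C57BL/6N mice were dissociated, live cells were sorted, and transcripts of single cells were counted as unique molecular identifiers (UMIs) with a 3-prime kit of 10x Genomics. The question of the study was recovery from hyperoxic injury of the newborn lung in either sex. Each of the 6 libraries pooled 3 mice. Females and males were taken at day 1 in room air (21% oxygen), at day 21 in room air, and at day 21 after a stay in 95% oxygen over days 1 to 5 that room air followed. No group of sex, age and treatment had a second library, and the day 1 pups had room air only. Spread between like pools was therefore not measured. P-values below rest on the spread between sexes or conditions that the fit leaves over, and on variance shared across genes.

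An imprinted gene is read mainly from the copy inherited from 1 parent. Igf2 encodes a fetal growth factor, Igf2r the receptor that carries it to the lysosome, and Grb10 an adaptor that restrains the insulin and IGF1 receptors. Igf2, Dlk1, Peg3, Plagl1 and Mest are read from the paternal copy, while H19, Meg3, Cdkn1c, Igf2r and, in most tissues, Grb10 are read from the maternal copy. The counts do not separate the parental copies.

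The genes sit at 7 places in the genome (GRCm38, GENCODE M21). H19 (chromosome 7, 142575529 to 142578143, minus strand) ends 72.6 kb from Igf2 (chromosome 7, 142650766 to 142666816, minus strand), with which it shares an imprinting control region. Cdkn1c (chromosome 7, 143458339 to 143461050, minus strand), a brake on cyclin-dependent kinases, lies 791.5 kb further along. Dlk1 (chromosome 12, 109452823 to 109463336, plus strand), a membrane protein related to Notch ligands, lies 77.7 kb from the long noncoding RNA Meg3 (chromosome 12, 109541001 to 109571726, plus strand). Peg3 (chromosome 7, 6703892 to 6730431, minus strand) and Plagl1 (chromosome 10, 13060504 to 13131694, plus strand) encode zinc-finger proteins. Mest (chromosome 6, 30723547 to 30748465, plus strand) encodes a protein related to hydrolases. Grb10 spans chromosome 11, 11930508 to 12038683, and Igf2r spans chromosome 17, 12682406 to 12769664, both on the minus strand. Genes on the opposite strand overlap H19 (Gm27483 and Gm27786), Igf2 (Igf2os), Igf2r (Airn), Mest (Copg2 and Gm44296), Meg3 (Gm26906), Plagl1 (Gm27741) and Cdkn1c (Gm44732). Whether the counting used strand is not given in the sources used here, so reads of these pairs may have been divided between them.

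Some of these transcripts carry microRNAs, and those lying inside a member are printed because host and microRNA are read from the same stretch of DNA. The mature sequences are from RefSeq (GRCm38.p6), written 5′ to 3′, with the seed (bases 2 to 8) in capitals. The mature microRNAs themselves were not measured here. MiR-675 lies in an exon of H19, miR-483 in an intron of Igf2, miR-770 and miR-1906 in exons of transcripts of Meg3, and miR-335 in an intron of Mest.
mmu-miR-675-5p: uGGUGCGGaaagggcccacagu
mmu-miR-675-3p: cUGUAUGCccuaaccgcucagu
mmu-miR-483-5p: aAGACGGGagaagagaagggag
mmu-miR-483-3p: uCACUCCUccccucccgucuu
mmu-miR-770-5p: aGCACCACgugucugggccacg
mmu-miR-770-3p: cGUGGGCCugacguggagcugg
mmu-miR-1906: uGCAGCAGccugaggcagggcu
mmu-miR-335-5p: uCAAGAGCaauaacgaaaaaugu
mmu-miR-335-3p: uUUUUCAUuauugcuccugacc
No pair of these 9 microRNAs shared a seed.

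A library held 122173482 to 163649658 UMIs, and cells with one of the authors' classes had a median of 8329 to 9703 UMIs. Doublets called by Scrublet made up 1.41% to 11.1% of those cells. The female hyperoxia library stands apart: 43.8% of its cells with a class held no UMI of Xist, the RNA of the inactive X chromosome, against 15.6% and 22.8% in the other female libraries. Of 55544 different barcodes of cells with a class, 338 occurred in more than 1 library. Endothelial cells were 36.8% and 34.9% of cells in the room air libraries of day 21 and 46.5% and 53.1% in those after hyperoxia (female and male, the order used throughout). Levels are given as CPM, the usual unit of a gene's UMIs scaled to all UMIs of the class in that library, in classes with at least 50 cells in a library. Intervals are exact 95% intervals that cover counting error only.

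At day 1 the 10 genes divided among the lineages of the lung. Mesenchymal cells, which were 14.4% and 7.89% of cells, held 70.2% and 64.9% of the UMIs of H19. Endothelial cells, 27.6% and 25% of cells, held 73.2% and 78.7% of the UMIs of Mest and 57% and 64.3% of those of Peg3. Epithelial cells, 21.8% and 30.3% of cells, held 85.5% and 97.7% of the UMIs of Dlk1. Immune cells, 36.2% and 36.9% of cells, held 9.43% or less of the UMIs of each member. The lineage with the most UMIs was the same in both day 1 libraries for H19, Igf2, Dlk1, Meg3, Peg3 and Mest, and it differed for Plagl1, Cdkn1c, Grb10 and Igf2r.

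**Figure D1:**
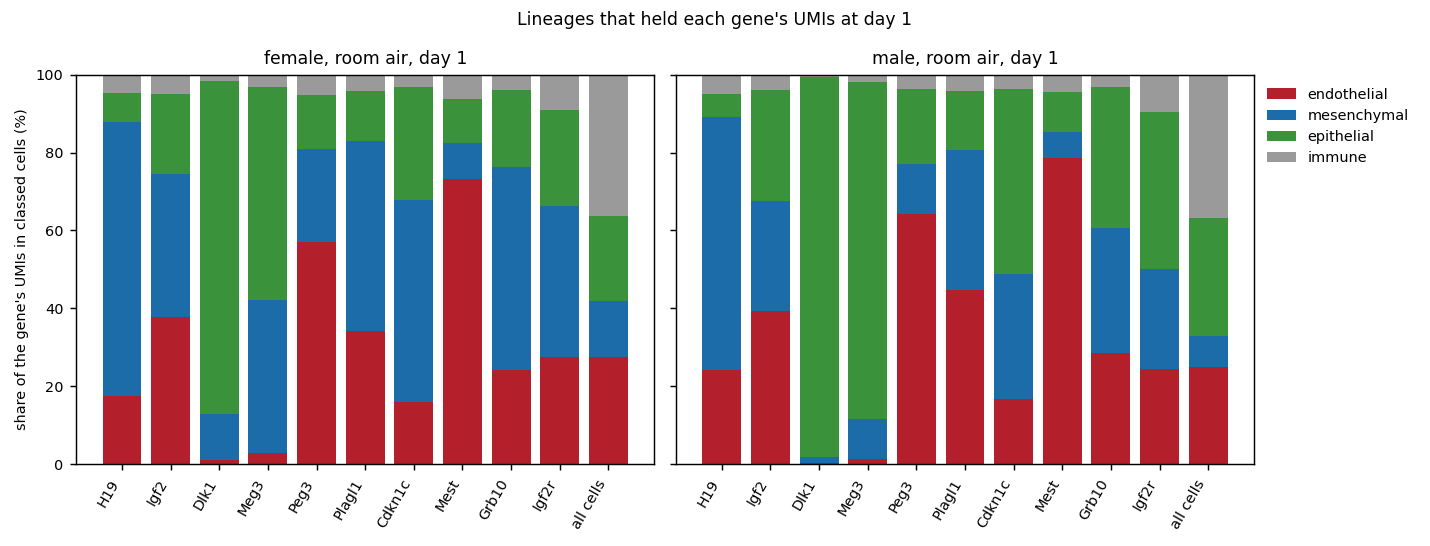
Share of each gene's UMIs (percent, vertical axis) held by endothelial, mesenchymal, epithelial and immune cells in the female (left) and male (right) day 1 library, with the share of cells in the last bar. H19 was mostly mesenchymal (70.2% and 64.9%), Mest mostly endothelial (73.2% and 78.7%) and Dlk1 mostly epithelial (85.5% and 97.7%).

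H19, a maternal noncoding RNA, was highest in myofibroblasts, the contractile fibroblasts of the growing alveolar septum. It stood there at 759 and 929 CPM at day 1, at 0 and 0 CPM at day 21 with room air alone, and at 2.36 and 0 CPM after hyperoxia. The day 1 and day 21 libraries did not overlap. Against the level that 3 UMIs per library would give, H19 in myofibroblasts was at least 162-fold lower at day 21 in females and at least 336-fold lower in males. Venous endothelium (370 and 360 CPM), pericytes (338 and 348 CPM), arterial endothelium (248 and 295 CPM) and matrix fibroblasts (211 and 396 CPM) followed at day 1. The order of these 4 classes differed between the libraries, and 1 cell held 23.5% of the venous H19 UMIs in the female library. General capillary endothelium (gCap) had 56.2 and 33.9 CPM and aerocytes (aCap) 15.4 and 17.8 CPM.

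Beside the H19 signal in veins at day 1, Col3a1, a collagen gene of fibroblasts, was at 2400 and 1610 CPM in myofibroblasts and at 33.7 and 25.9 CPM in veins. In neutrophils H19 was at 4.58 and 5.28 CPM beside 6.76 and 7.04 CPM of Col3a1. The part of fibroblast RNA in these H19 levels was not tested. After each cell was thinned to 2000 UMIs, H19 was seen in 57.4% and 63.6% of myofibroblasts at day 1, in 20.7% and 24.2% of venous cells, and in 0.631% and 0.494% of neutrophils. Without thinning, H19 in the whole of the classed cells was at 109 and 66 CPM at day 1, 1.96 and 0.599 CPM at day 21 without hyperoxia, and 0.95 and 1.09 CPM after hyperoxia.

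At day 21 H19 UMIs lay in few cells of the library as a whole. In gCap H19 was at 7.35 and 1.45 CPM in room air, and the hyperoxia libraries had 2.4 and 2.36 CPM, with 34, 12, 23 and 30 cells holding a UMI. Lymphatic endothelium after hyperoxia had 7.28 and 9.16 CPM, from 7 and 5 UMIs. In room air lymphatic endothelium, with 23 and 36 cells, H19 was at 4.81 and 60.9 CPM, from 1 and 17 UMIs. The 17 UMIs lay in 8 cells and were 17 of the 44 H19 UMIs of the male room air library. In T cells of the female room air library a level of 10.9 CPM came from 32 UMIs that were all in 1 cell.

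Igf2 was highest in the larger vessels. At day 1 it was at 283 and 275 CPM in venous endothelium and at 237 and 256 CPM in arterial endothelium, ahead of myofibroblasts (125 and 131 CPM), matrix fibroblasts (82.9 and 183 CPM) and pericytes (65.5 and 65.9 CPM). At day 21 in room air veins had 2.54 and 1.71 CPM, arteries 2.83 and 0.426 CPM, and myofibroblasts 23.5 and 16.6 CPM. In veins this is a 112-fold (95% interval 30.7 to 924) lower level in females and a 161-fold (28.8 to 6380) lower level in males, and in myofibroblasts a 5.32-fold (3.21 to 9.53) and 7.91-fold (4.96 to 13.4) lower level. The class order had turned over, with Igf2 in myofibroblasts above veins and arteries in both day 21 room air libraries. After hyperoxia lymphatic endothelium had the highest level of Igf2 among classes with at least 50 cells, at 33.3 and 20.2 CPM from 32 and 11 UMIs. The room air libraries, with 23 and 36 lymphatic cells, had 76.9 and 96.7 CPM of Igf2, without overlap. With classes of at least 20 cells, edgeR called Igf2 lower in lymphatic endothelium after hyperoxia (log2 change -1.65, adjusted p = 0.0238).

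At day 1 Dlk1 had the largest share of its UMIs in 1 lineage of the 10 members. Alveolar type 2 cells, the surfactant producers, had 2670 and 4180 CPM at day 1, and the type 2 class marked by Lyz1 had 2530 and 3650 CPM. After thinning, Dlk1 was seen in 87% and 97.5% of type 2 cells and in 84.5% and 93.6% of the Lyz1 class. Matrix fibroblasts (427 and 500 CPM), pericytes (416 and 258 CPM) and myofibroblasts (163 and 230 CPM) came next. The class of type 2 cells held its markers: the sum of Sftpc, Sftpb and Lamp3 was 142000 and 197000 CPM at day 1.

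At day 21 no Dlk1 was detected in type 2 cells. They had 0 UMIs in the female room air library (133 cells), the female hyperoxia library (59 cells) and the male hyperoxia library (84 cells), where 3 UMIs would have been 0.998, 2.66 and 1.95 CPM. In females in room air Dlk1 in type 2 cells was at least 2670-fold lower at day 21. Over all cells with a class Dlk1 had 257 and 1140 CPM at day 1 and 0.0319 and 0.0544 CPM at day 21 in room air. The gap between the day 1 libraries went with their make-up: the female library had 54 type 2 cells and 407 of the Lyz1 class, the male library 629 and 1021. Within type 2 cells the male level was above the female level by far less than over all cells with a class. Over all barcodes, with or without a class, Dlk1 was at 656 and 1270 CPM at day 1. Barcodes without a class had 1540 and 1590 CPM of Dlk1 at day 1. From the levels over all cells alone, fewer cells of a type and less RNA per cell cannot be told apart. The fall given above for type 2 cells is a value within that class.

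Meg3, the maternal noncoding RNA beside Dlk1, was high in the same type 2 cells and also in fibroblasts and pericytes. At day 1 it was at 2470 and 3200 CPM in type 2 cells, 2060 and 1920 CPM in pericytes, 1980 and 1900 CPM in myofibroblasts, 1790 and 1940 CPM in matrix fibroblasts and 637 and 635 CPM in type 1 cells. The fibroblast classes and pericytes did not differ beyond the spread of the libraries. Venous endothelium was the highest endothelial class, at 268 and 330 CPM.

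Unlike Dlk1, Meg3 was still measured in fibroblasts at day 21. Myofibroblasts had 186 and 194 CPM of Meg3 in room air and 236 and 231 CPM after hyperoxia. The day 1 level of Meg3 in myofibroblasts was 10.6-fold (95% interval 8.89 to 12.9) that of day 21 in females and 9.75-fold (8.5 to 11.2) in males. In gCap Meg3 was at 61 and 68.3 CPM at day 1 and at 0.361 and 0.171 CPM at day 21.

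The low levels of Dlk1 and Meg3 in gCap at day 1 were close to those in neutrophils, which are not known to express them. Neutrophils had 11.1 and 24.9 CPM of Dlk1 and 57.5 and 55.9 CPM of Meg3, beside 13.5 and 20.3 CPM of Dlk1 in gCap. Sftpc, a surfactant gene of type 2 cells, was found in the same libraries at 524 and 910 CPM in neutrophils and at 592 and 850 CPM in gCap. Alveolar macrophages, NK cells, B cells, veins, arteries and aCap were also at 6.11 to 29.4 CPM of Dlk1 at day 1. The part of free RNA was not tested, and nothing is read from the lower day 21 values of Dlk1 in these 8 classes or of Meg3 in gCap and immune classes. Meg3 in aCap was at 90.8 and 118 CPM at day 1.

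Of all genes with at least 500 UMIs, Rian, the next noncoding RNA of the same imprinted cluster, was most like Meg3 across 112 profiles of class and library (Pearson r = 0.967 of log2(CPM + 1), across profiles that share libraries). For H19 the most alike gene was Igf2 (r = 0.86), followed by Igf2bp1 (r = 0.825), whose protein binds the RNA of Igf2. For Dlk1 it was Tmem213 (r = 0.842).

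Peg3 and Mest had over 50% of their day 1 UMIs in endothelial cells, where Igf2 had 37.7% and 39.4%. Peg3 was at 1000 and 1170 CPM in veins, 860 and 1020 CPM in gCap and 1100 and 916 CPM in matrix fibroblasts at day 1, and the 3 classes overlapped in their levels. At day 21 in room air veins had 53.2 and 30.8 CPM, gCap 97.5 and 73.6 CPM, and matrix fibroblasts 144 and 167 CPM of Peg3. The ranges of day 1 and day 21 were far apart in all 3 classes, and the day 1 level of Peg3 in gCap was 8.82-fold (8.37 to 9.3) and 13.9-fold (12.9 to 14.9) that of day 21.

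Mest was at 1010 and 1240 CPM in aCap, 1030 and 1050 CPM in veins and 877 and 958 CPM in gCap at day 1. The capillary classes parted by day 21: aCap had 199 and 200 CPM of Mest in room air and 224 and 233 CPM after hyperoxia, while gCap had 48.2 and 46.8 CPM and 42.6 and 41.2 CPM. All 4 day 21 libraries had more Mest in aCap than in gCap. Pericytes had 728 and 889 CPM of Mest at day 1 and 60.8, 30.3 and 46.1 CPM at day 21 in the female room air, female hyperoxia and male hyperoxia libraries.

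Plagl1, a transcription factor of the imprinted network, was highest in veins (605 and 497 CPM) at day 1, ahead of myofibroblasts (359 and 277 CPM), pericytes (288 and 314 CPM) and matrix fibroblasts (264 and 270 CPM). Myofibroblasts and pericytes overlapped in their Plagl1 levels. At day 21 in room air myofibroblasts had 92.4 and 80.2 CPM of Plagl1 and veins 26.6 and 34.2 CPM, so the order of these classes was reversed in both libraries. In gCap Plagl1 went from 133 and 123 CPM to 1.99 and 1.45 CPM. Only the male hyperoxia library had at least 50 type 1 cells at day 21. They had 74.5 CPM of Plagl1 against 45.5 and 31 CPM in type 1 cells at day 1. Age, hyperoxia and the version of the counting software (given below) cannot be told apart in that value, which rests on 1 library.

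The upstream sequence of Peg3 is shown because it was the only one of the 15 windows found for 8 members (none for H19 and Cdkn1c) that held GGGGCCCC, a palindrome known as a binding motif of Plagl1. The profiles of Peg3 and Plagl1 had an r of 0.85 over the 112 profiles, which is not particular to the pair: Peg3 had 0.86 with Grb10 and 0.911 with Cavin3, its most alike gene, and Plagl1 had 0.84 with Igf2 and 0.879 with Fbn2. The 250 bases before the start of Peg3 (chr7:6730420-6730669, minus strand, GRCm38.p6, RefSeq) are printed with the motif in capitals, at position 50 from the 5′ end.
Peg3 upstream: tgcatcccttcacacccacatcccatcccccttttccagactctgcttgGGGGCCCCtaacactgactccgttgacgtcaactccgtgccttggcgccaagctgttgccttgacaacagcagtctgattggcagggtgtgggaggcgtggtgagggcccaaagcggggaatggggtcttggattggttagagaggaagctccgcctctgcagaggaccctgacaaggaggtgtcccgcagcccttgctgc
Of 32851 upstream windows of the same length, 292 (0.889%) held this motif. A match is a description of letters and no evidence of binding.

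Cdkn1c, Grb10 and Igf2r kept more of their signal in some classes. Cdkn1c was highest in pericytes, the mural cells of capillaries, at 1300 and 1690 CPM at day 1 and 924, 935 and 1090 CPM at day 21 (female room air, female hyperoxia, male hyperoxia). In myofibroblasts Cdkn1c had 287 and 183 CPM at day 1 and 163 and 172 CPM at day 21 in room air, and the male values differed by a factor of 1.06 (95% interval 0.907 to 1.25). Veins had 138 and 115 CPM at day 1 and 7.61 and 17.1 CPM of Cdkn1c at day 21, without overlap.

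Grb10 was highest in myofibroblasts in all 6 libraries, at 502 and 417 CPM at day 1, 435 and 428 CPM in the room air libraries of day 21 and 433 and 479 CPM in those after hyperoxia. These 6 values of Grb10 overlapped between the ages, as did those of gCap (128 and 115 CPM, 126 and 143 CPM, 148 and 124 CPM). Igf2r was highest in pericytes, with 765 and 646 CPM at day 1 and 189, 151 and 134 CPM at day 21 in the 3 libraries with at least 50 pericytes. In gCap Igf2r was at 95 and 85.3 CPM at day 1 and 79.2 and 71.9 CPM at day 21 in room air. NK cells had 80.8 and 52.5 CPM of Igf2r at day 21 in room air and 44.7 and 41.1 CPM at day 1. The day 1 level of Igf2r in NK cells was 0.553-fold (95% interval 0.407 to 0.75) that of day 21 in females and 0.783-fold (0.565 to 1.07) in males. The fitted log2 change of 0.37 was below the NK cell median of 0.58 for genes with 30 to 100 kb of intron.

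**Figure D2:**
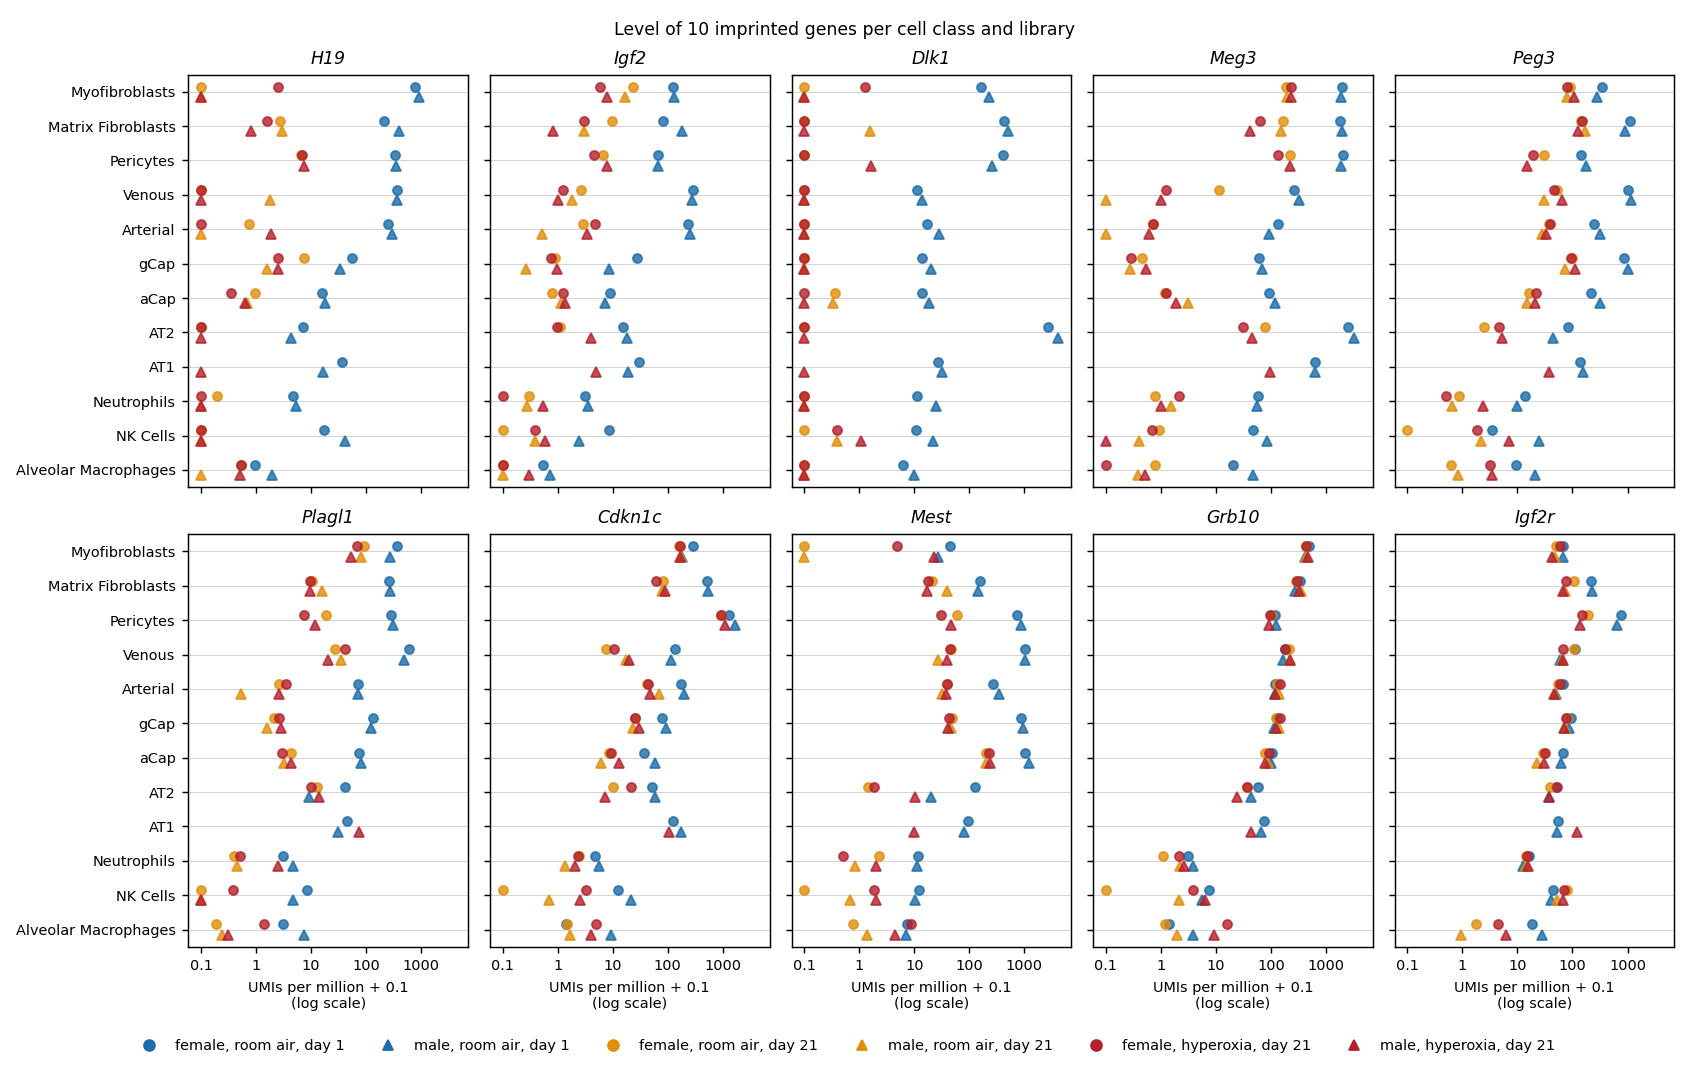
Level of each gene (CPM + 0.1, log axis) in 12 cell classes, 1 point per library with at least 50 cells of the class: circles are female and triangles male libraries, blue is room air at day 1, orange room air at day 21 and red hyperoxia at day 21. Day 1 points of H19 in myofibroblasts (759 and 929 CPM) lie far to the right of day 21 points, while the 6 points of Grb10 in myofibroblasts lie together (417 to 502 CPM).

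Across the 10 classes with at least 50 cells in all 4 room air libraries, 89 of 100 pairs of member and class passed the filter on low counts. The fitted level was lower by 2-fold or more at day 21 in 75 of these 89 pairs and higher by 2-fold or more in 0. With libraries scaled on genes with under 1 kb of intron these counts were 71 and 2 (Grb10 in veins and Igf2r in NK cells). Of all 109029 pairs of gene and class in the same fit 13.4% were lower by 2-fold or more. Of the 75 pairs 26 were in 4 immune classes (alveolar macrophages, B cells, NK cells and neutrophils), where members stood at 3.05 to 96.3 CPM at day 1. In neutrophils Mest was at 11.6 and 11 CPM, Peg3 at 13.7 and 9.68 CPM, Plagl1 at 3.05 and 4.62 CPM and Igf2 at 3.05 and 3.52 CPM. The part of free RNA in these 26 pairs was not tested, and nothing is read from them. In the 6 stromal and endothelial classes 49 of 60 pairs were lower by 2-fold or more. Because the members may have been chosen on this contrast, nothing is read from that gap. H19 (8 of 8 classes), Igf2 (7 of 7), Dlk1 (10 of 10, of which 8, neutrophils included, were at 6.11 to 29.4 CPM at day 1), Meg3 (10 of 10, gCap and 4 immune classes included), Peg3 (9 of 9), Plagl1 (8 of 8) and Mest (10 of 10) were lower by 2-fold or more in each class that passed, Cdkn1c in 8 of 9, Grb10 in 2 of 8 and Igf2r in 3 of 10. The median fitted log2 change was -4.24 over the member pairs, or -4.21 with the 10 pairs that had 0 UMIs in both day 21 libraries set to the bound given by 3 UMIs, and 0.01 over all pairs.

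The fitted change with age also moved with intron length, which matters for Grb10 and Igf2r. The day 1 libraries were counted with Cell Ranger 6.0.0 and the day 21 libraries with 7.0.1, per the file headers. Over all genes the median log2 change at day 21 was -0.71 for genes with under 1 kb of intron, -0.08 for 10 to 30 kb, 0.45 for 30 to 100 kb and 1.39 for over 100 kb. Age and version cannot be told apart in these libraries. With libraries scaled on genes with under 1 kb of intron, the median of all genes in a class shifted up by 0.61 to 0.85 log2.

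Since that scaling moves the genes of a class up nearly alike, changes just below 0 turn positive by its construction: Grb10 in 3 of 8 classes, Igf2r in 5 of 10 and Cdkn1c in 1 of 9. Grb10 in myofibroblasts went from a log2 change of -0.17 to 0.68, Igf2r in gCap from -0.38 to 0.39, and Cdkn1c in myofibroblasts from -0.52 to 0.32. With the class median of all genes taken off, the same rescaled values were -0.13, -0.4 and -0.49. Against the class median of genes with 30 to 100 kb of intron, Grb10 was lower by 0.5 log2 in myofibroblasts and by 0.44 in gCap. Igf2r was lower than that median by 1.86 in matrix fibroblasts and by 0.83 in gCap. Cdkn1c in myofibroblasts was higher by 0.25 than the class median of genes with under 1 kb of intron. In every other class that passed, Cdkn1c was below that median. For the other 7 members every class that passed remained lower at day 21 under this scaling.

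**Figure D3:**
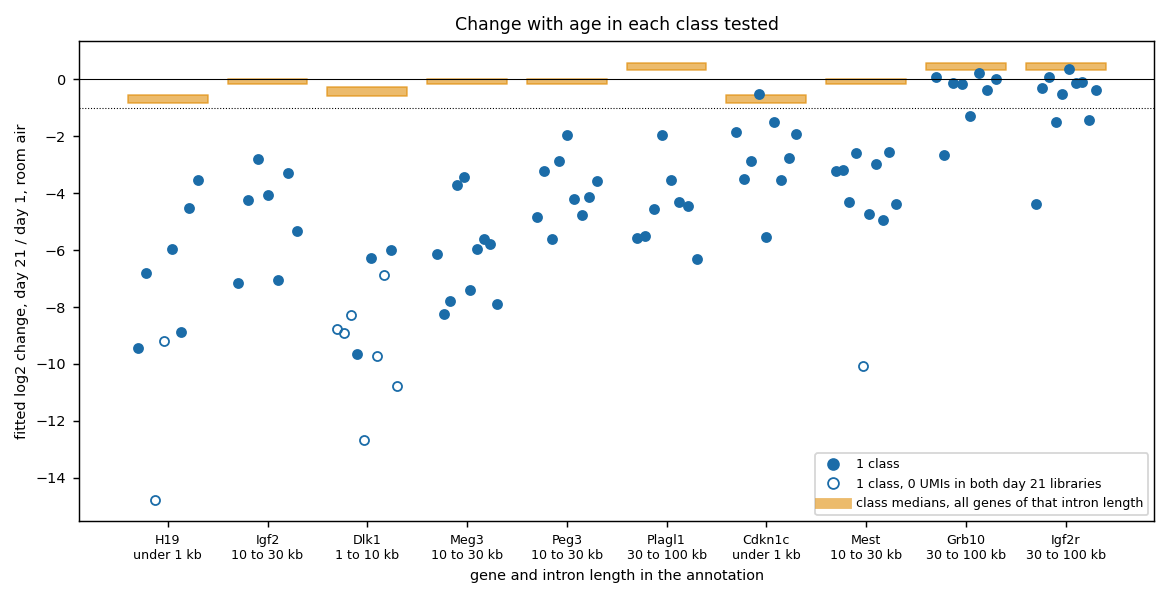
Fitted log2 change from day 1 to day 21 in room air (vertical axis) for each gene, 1 point per class tested, with open points for classes at 0 UMIs in both day 21 libraries, whose fitted values are no bounds. The orange band spans the class medians of all genes with the same intron length, and 6 of the 8 points of Grb10 lie between -0.73 and -0.2 of their class median.

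Airn, the noncoding RNA that runs antisense through Igf2r, was higher at day 21 than at day 1. In gCap Airn was at 66.5 and 55.6 CPM at day 1 and at 454 and 375 CPM at day 21 in room air, and in pericytes at 227 and 206 CPM at day 1. Copg2, which overlaps Mest from the other strand, was at 22.9 and 23.7 CPM in gCap at day 1. At day 21 in room air it was at 65.5 and 64.8 CPM. The fitted log2 changes in gCap were 2.64 for Airn and 1.36 for Copg2. Over all genes in gCap the median was 0.46 with 30 to 100 kb of intron and 1.31 with over 100 kb. Airn and Copg2 were not set against genes of their own intron length, and age and Cell Ranger version cannot be told apart in these rises. Reads of Airn and Copg2 may have been mixed with those of their partner if strand was not used. Their part in the levels of Igf2r and Mest was not tested.

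Other genes of the IGF axis, the secreted factors, receptors and binding proteins around Igf2, were lower in some classes and higher in others. Over all pairs of gene and class 19.9% were higher by 2-fold or more at day 21, beside the 13.4% lower. Of 118 pairs over its 18 genes, 51 (43.2%) were lower by 2-fold or more at day 21 and 21 (17.8%) higher, with a median log2 change of -0.68 against 0.01 over all pairs. Igf2bp1, an oncofetal RNA-binding protein, was at 12 and 13.8 CPM in gCap at day 1 and at 0.12 and 0.0855 CPM at day 21 in room air. Its day 1 level there was as low as that of Dlk1 in gCap (13.5 and 20.3 CPM), and the part of free RNA was not tested. Igfbp5, an IGF-binding protein, was higher in myofibroblasts at day 21, at 4200 and 3900 CPM against 281 and 290 CPM, with a fitted log2 change of 3.74. Of 236 pairs over 36 other imprinted genes, 67 (28.4%) were lower by 2-fold or more and 52 (22%) higher, with a median of -0.21. Of 145 pairs of 20 cell cycle genes, 64 (44.1%) were lower by 2-fold or more and 9 (6.21%) higher, with a median of -0.83. These list counts were not set against genes of the same intron length. The median log2 change over all genes ran from -0.71 with under 1 kb of intron to 1.39 with over 100 kb. Age and Cell Ranger version cannot be told apart in the list counts, higher or lower.

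Cycling gCap at day 1 gave no shared pattern for H19 between the libraries. In gCap of the female library H19 was 2.56-fold (95% interval 1.99 to 3.26) as high in cells with UMIs of at least 2 of 6 cycling genes as in cells with none, and in the male library the factor was 1.01 (0.641 to 1.52). For Peg3 the factors were 0.992 (0.914 to 1.08) and 0.67 (0.611 to 0.732), and for Mest 1.07 (0.985 to 1.15) and 0.995 (0.919 to 1.08). In transient macrophages the factors differed between the libraries. They were 0.507 and 2.44 for H19, 1.22 and 3.02 for Peg3, and 0.758 and 3.52 for Mest. In type 1 cells of the female library H19, Peg3 and Mest had factors of 2.95, 1.44 and 2.12. The male class named classical monocytes 2 had 0.718 for Peg3 and 5.24 for Mest.

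The effect of hyperoxia at day 21 was tested with edgeR's quasi-likelihood test and a term for sex, in 14 classes, and calls needed an adjusted p below 0.05 across the genes of that class. These room air libraries are also the day 21 side of the age values above. Of 140 pairs of member and class 70 passed the filter on low counts, and none of them was Dlk1. In the stromal and endothelial classes where the genes had been high at day 1, 1 change was called: Meg3 fell in matrix fibroblasts. Another 6 pairs were called higher, all in immune classes. Over all 154767 pairs of gene and class 1.63% were called higher and 0.654% lower. The median log2 change of the 70 pairs was 0.17, and 20 had an unadjusted p under 0.05, as had 9.58% of all pairs.

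Meg3 in matrix fibroblasts, the collagen-producing fibroblasts of the lung, was at 164 and 153 CPM in room air and at 63.6 and 42.4 CPM after hyperoxia, without overlap. Its log2 change was -1.59 (SE 0.196, edgeR adjusted p = 0.0166), in a class where 0.125% of genes were called lower. Single cells carried much of the signal: 1 cell held 61 of 190 UMIs in the female room air library and 44 of 59 in the male hyperoxia library. Without the cell with the most Meg3 UMIs in each library the levels were 114 and 132 CPM in room air and 46.1 and 10.9 CPM after hyperoxia, and the log2 change was -2.17 (edgeR adjusted p = 0.00961). DESeq2 gave -1.61 with an adjusted p of 0.146. Without the term for sex the adjusted p was 0.107 and with the stricter cell filter 0.11, both by edgeR. Fits with a library left out also drop the term for sex, since 3 libraries leave it no residual degrees of freedom, and their arm of 1 library is assumed to vary like the other. The log2 change was -1.33 (edgeR adjusted p = 0.23) without the male hyperoxia library and -1.62 (edgeR adjusted p = 0.176) without the male room air library.

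The make-up of the matrix fibroblast class moved along with this change. The summed level of its 4 markers (Col1a1, Col1a2, Pdgfra and Dcn), all 4 over 50 CPM in every library, was 10400 and 12900 CPM in room air and 6360 and 4110 CPM after hyperoxia. The sum of 4 markers of endothelium (Pecam1, Cdh5, Cldn5 and Kdr), also all over 50 CPM, was 1380 and 1960 CPM in room air and 2180 and 2520 CPM after hyperoxia. The part of these shifts in the fall of Meg3 was not tested. Without the cells of the female hyperoxia library that lack Xist the log2 change of Meg3 was -1.36 (edgeR adjusted p = 0.0129).

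In myofibroblasts Meg3 did not pass the test, with a log2 change of 0.29 (SE 0.184, edgeR adjusted p = 0.645). Pericytes had 224 CPM in the female room air library and 137 and 221 CPM after hyperoxia. Whether the change of Meg3 differed between fibroblast classes was not tested. Rian, its neighbour, was at 24.2 and 30.6 CPM in matrix fibroblasts in room air and at 8.04 and 6.46 CPM after hyperoxia. In myofibroblasts Rian rose from 18.8 and 11.1 CPM to 30.7 and 45.9 CPM (log2 change 1.42, SE 0.405, edgeR adjusted p = 0.0206), and without doublets the log2 change was 1.56 but not called (edgeR adjusted p = 0.368).

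Grb10, Mest, Igf2r and Peg3 were called higher in alveolar macrophages after hyperoxia, at low levels. Grb10 went from 1.1 and 1.87 CPM to 15.7 and 9.02 CPM, a log2 change of 3 (SE 0.451, edgeR adjusted p = 2.16e-05). Mest went from 0.676 and 1.29 CPM to 8.7 and 4.3 CPM, a log2 change of 2.65 (SE 0.562, edgeR adjusted p = 0.00143). Igf2r went from 1.69 and 0.861 CPM to 4.35 and 6.15 CPM (edgeR adjusted p = 0.0135) and Peg3 from 0.507 and 0.718 CPM to 3.05 and 3.28 CPM (edgeR adjusted p = 0.0183). Alveolar macrophages were also the class where 9.1% of all genes were called higher.

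Grb10 was called in a pair of further immune classes. In B cells Grb10 went from 2.92 and 3.04 CPM to 17.4 and 34.4 CPM (log2 change 3.03, SE 0.474, edgeR adjusted p = 0.0387), where 1.66% of genes were called higher. In nonclassical monocytes it went from 0.437 and 1.2 CPM to 5.79 and 3.78 CPM (log2 change 2.49, SE 0.489, edgeR adjusted p = 0.00921), where 4.38% of genes were called higher. In all 6 called pairs both hyperoxia libraries were above both room air libraries. Without the cells lacking Xist the female hyperoxia library had 18.4 CPM of Grb10 and 5.07 CPM of Mest in alveolar macrophages, 20.5 CPM of Grb10 in B cells and 9.57 CPM in nonclassical monocytes, and 10 members and classes were called in place of 7. DESeq2 kept 1 of the 7 calls, Grb10 in alveolar macrophages, and gave no adjusted p for Grb10 in nonclassical monocytes. Fits with a single library and the term for sex left out ended the calls of Peg3 (4 of 4 libraries), Mest (both female libraries) and Igf2r (both male libraries) in alveolar macrophages, of Grb10 in B cells (either room air library, and also 1 fit of all 6 libraries, no term for sex and the stricter cell filter) and of Grb10 in nonclassical monocytes (the female hyperoxia library), with edgeR adjusted p up to 0.592, 0.0995, 0.4, 0.583 and 0.176 over all their alternatives. The log2 changes over the alternatives that could be fitted were 2.06 to 2.55 for Peg3, 2.15 to 3.12 for Mest and 1.61 to 2.56 for Igf2r in alveolar macrophages, and for Grb10 2.45 to 3.43 in B cells and 1.96 to 3.41 in nonclassical monocytes. Each of these levels was below that of the same gene in gCap, where Grb10 was at 126 and 143 CPM in room air.

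Endothelial RNA was higher in the same immune classes after hyperoxia. Cdh5, Cldn5 and Kdr, markers of endothelium, summed to 27.7 and 38 CPM in alveolar macrophages in room air and to 470 and 277 CPM after hyperoxia, with none of the 3 at 0 in any library. In B cells the sum was 115 and 118 CPM in room air and 406 and 1110 CPM after hyperoxia. In nonclassical monocytes it was 26.2 and 39.8 CPM and 88.9 and 141 CPM. The sum in NK cells was 14.7 and 55.7 CPM in room air and 146 and 187 CPM after hyperoxia. In regulatory T cells it was 29.5 and 48.4 CPM and 93.8 and 109 CPM. No gene was called for hyperoxia in NK cells or regulatory T cells. Doublets were 2.3% and 2.87% of alveolar macrophages in room air and 24.3% and 17.2% after hyperoxia.

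When cells of the immune classes that held a UMI of Cdh5, Cldn5 or Kdr were left out, none of these 6 pairs passed the filter on low counts, so none could be tested. Of the alveolar macrophages 61 of 136 and 132 of 308 were left out after hyperoxia, and 152 of 609 and 111 of 348 in room air. Grb10 in the remaining alveolar macrophages was at 0.569 and 0.425 CPM in room air and at 1.75 and 0.765 CPM after hyperoxia, each from 2 to 5 UMIs. The other 3 members called there overlapped between room air and hyperoxia. Mest was at 0.569 and 1.06 CPM in room air and at 0.875 and 0.765 CPM after hyperoxia. Peg3 was at 0.455 and 0 CPM and at 0 and 1.53 CPM, and Igf2r at 1.82 and 0.213 CPM and at 0.875 and 3.06 CPM. In the remaining B cells Grb10 was at 1.86 and 0.587 CPM in room air and at 1.34 and 0 CPM after hyperoxia. In the remaining nonclassical monocytes Grb10 was at 0.52 and 0.634 CPM in room air and at 3.18 and 0.766 CPM after hyperoxia, where the female library was still the highest. Without doublets these 6 pairs also fell below the filter, with 0 to 15 UMIs per library. In alveolar macrophages the hyperoxia libraries were then still above both room air libraries for Grb10, Mest and Peg3. Grb10 was at 1.89 and 1.04 CPM against 0.697 and 0.447 CPM. Mest was at 1.26 and 1.04 CPM against 0.609 and 0.894 CPM, and Peg3 at 2.52 and 0.783 CPM against 0.522 and 0 CPM. These hyperoxia values came from 2 to 4 UMIs each, at or near the level that 3 UMIs per library would give. The libraries without doublets overlapped for Igf2r there (0 and 1.83 CPM against 1.31 and 0.447 CPM), for Grb10 in B cells (1.68 and 7.1 CPM against 2.66 and 0.568 CPM) and for Grb10 in nonclassical monocytes (0.447 and 0.214 CPM against 0 and 0.61 CPM).

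**Figure D4:**
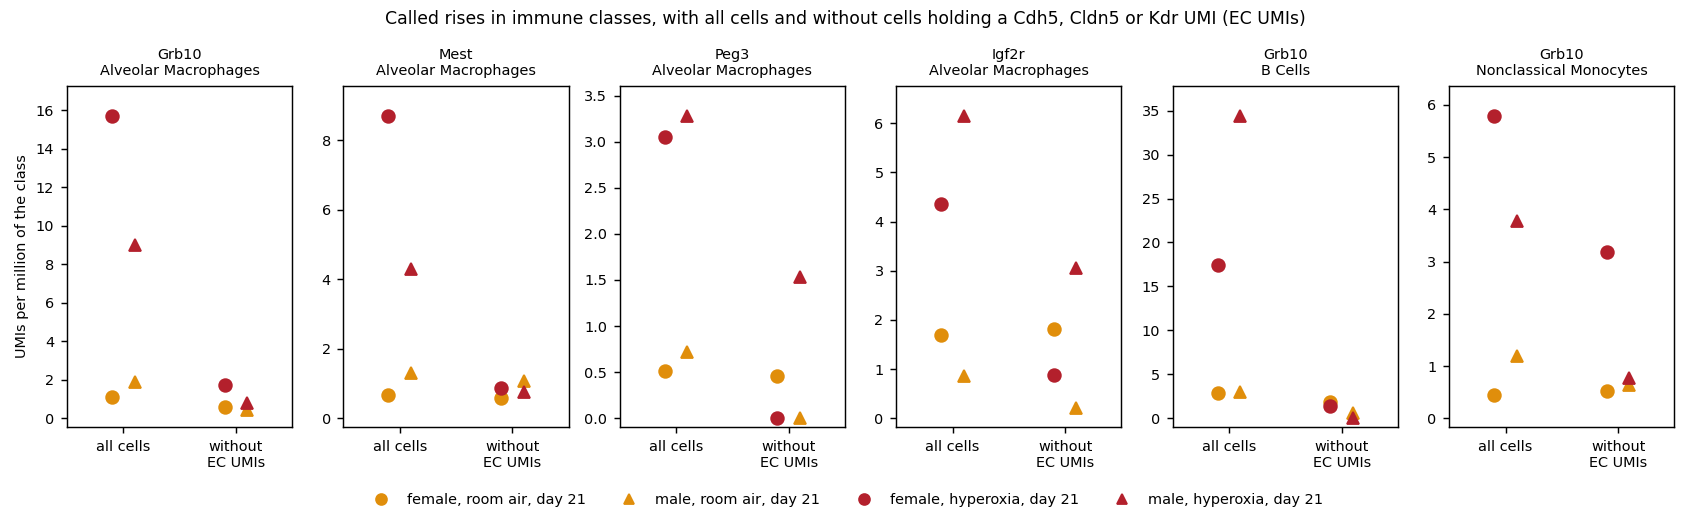
Level (CPM of the class) of the 6 pairs called higher after hyperoxia in immune classes, with all cells (left in each panel) and without cells holding a UMI of Cdh5, Cldn5 or Kdr (right). Grb10 in alveolar macrophages goes from 15.7 and 9.02 CPM with all cells of the hyperoxia libraries to 1.75 and 0.765 CPM without those cells.

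In the endothelial classes tested (50 or more cells in each library) none was called. Peg3 in aCap was at 15.9 and 15 CPM in room air and at 21.8 and 20.8 CPM after hyperoxia, a log2 change of 0.46 (SE 0.117, edgeR adjusted p = 0.157). Peg3 in aCap passed with no filter on low counts (edgeR adjusted p = 0.0219) and without the female room air library (edgeR adjusted p = 0.0426), as did Cdkn1c in aCap (edgeR adjusted p = 0.0492 and 0.0315). Igf2r in aCap passed without the female room air library (edgeR adjusted p = 0.0153). In gCap Peg3 was at 97.5 and 73.6 CPM in room air and at 94.9 and 113 CPM after hyperoxia, with overlap and a log2 change of 0.3 (SE 0.101, edgeR adjusted p = 0.151). Mest in aCap had a log2 change of 0.2 (SE 0.0793, edgeR adjusted p = 0.531) and Grb10 in gCap one of 0.03 (SE 0.0881, edgeR adjusted p = 0.97). Igf2 in myofibroblasts was at 23.5 and 16.6 CPM in room air and at 5.9 and 7.64 CPM after hyperoxia, without overlap, and did not pass the test (log2 change -1.52, SE 0.597, edgeR adjusted p = 0.192). Peg3 in gCap passed the threshold without doublets (edgeR adjusted p = 0.00839), without the cells lacking Xist (edgeR adjusted p = 0.00659), with no filter on low counts (edgeR adjusted p = 0.0201), with upper-quartile scaling (edgeR adjusted p = 0.0426) and without the female room air library (log2 change 0.52, edgeR adjusted p = 0.000509). H19 in gCap had a log2 change of -0.71 (edgeR adjusted p = 0.449), which became -1.6 (edgeR adjusted p = 1.51e-06) without the male room air library.

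**Figure D5:**
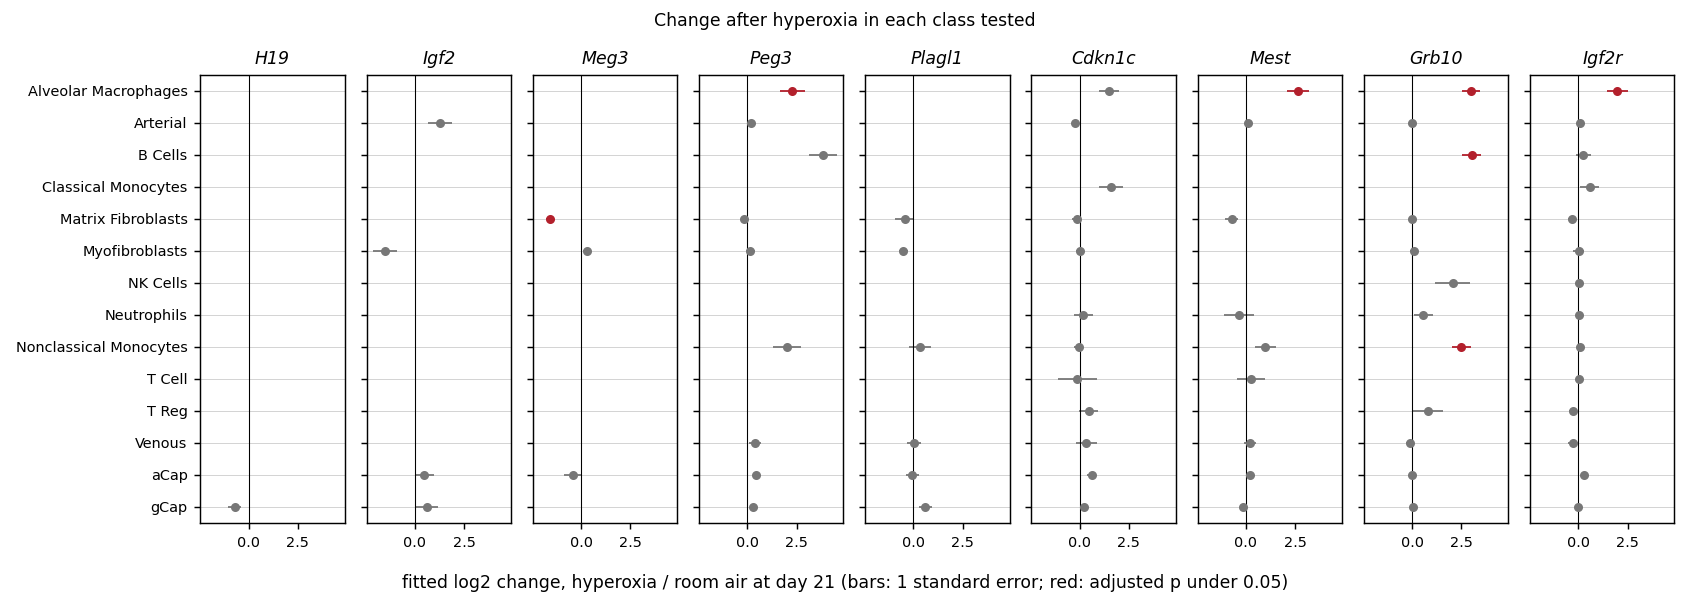
Fitted log2 change after hyperoxia at day 21 (horizontal axis, bars 1 standard error) of the 9 genes with a class tested, by cell class, with red points for an edgeR adjusted p under 0.05. Red points lie in alveolar macrophages, B cells and nonclassical monocytes on the higher side, and at Meg3 in matrix fibroblasts (-1.59) on the lower side.

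Of 128 pairs of IGF axis genes 14 (10.9%) were called higher after hyperoxia and 5 (3.91%) lower, beside 1.63% and 0.654% of all pairs. Of the 14 higher calls 10 were in alveolar macrophages, B cells and nonclassical monocytes, each with more endothelial RNA after hyperoxia. Igfbp5 fell in matrix fibroblasts, from 93.4 and 157 CPM to 30 and 11.5 CPM (log2 change -2.56, SE 0.369, edgeR adjusted p = 0.032). A separate test of whether this change differed between the sexes also passed the threshold (log2 term 1.89, SE 0.461, edgeR adjusted p = 0.0232). Igfbp7, a secreted binding protein of vessels, rose in gCap (log2 change 0.75, SE 0.0877, edgeR adjusted p = 3.38e-06). Igfbp3 fell in myofibroblasts (log2 change -0.84, SE 0.167, edgeR adjusted p = 0.000145) and Igfbp6 rose there (log2 change 1.3, SE 0.258, edgeR adjusted p = 0.000141). Of 296 pairs of other imprinted genes 7 (2.36%) were called higher, 5 of them in those immune classes. Another 4 (1.35%) were called lower, among them Ndn in myofibroblasts (log2 change -0.9, edgeR adjusted p = 0.0294). Doublets made up 1.79% and 9.18% of the room air myofibroblasts and 11% and 13.2% of those after hyperoxia. Without doublets the calls in myofibroblasts ended for Igfbp3, Igfbp6 and Ndn (edgeR adjusted p = 0.371, 0.315 and 0.631), at log2 changes of -0.62, 1.55 and -0.64, as did that of Igfbp5 in matrix fibroblasts (log2 change -2.29, edgeR adjusted p = 0.136). The sum of the 4 markers of endothelium in myofibroblasts was also higher after hyperoxia (21.9 and 205 CPM against 361 and 729 CPM), and its part in these changes was not tested. Of 169 pairs of cell cycle genes 14 (8.28%) were called higher, 12 of them in the same immune classes, and 2 (1.18%) lower.

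Females and males were compared over the 3 conditions, and none of the 93 pairs of member and class tested was called by edgeR, where 0.105% of all pairs were called. An unadjusted p under 0.05 was found for 14 pairs and for 5.4% of all pairs, and DESeq2 also called 0. In gCap Igf2 was higher in females by a log2 change of 1.25 (SE 0.339, edgeR adjusted p = 0.457). Its levels were 27.7 and 8.47 CPM at day 1, 0.783 and 0.171 CPM in the room air libraries of day 21 and 0.646 and 0.876 CPM in those after hyperoxia, so the female was higher in 2 of 3 conditions. Igf2 in gCap passed the threshold when any 1 of the 4 day 21 libraries was left out (log2 difference 1.21 to 1.7). H19 in gCap had a log2 difference of 0.83 (SE 0.25, edgeR adjusted p = 0.477), and a single cell of the female day 1 library carried 20.7% of that library's H19 UMIs in gCap. H19 in matrix fibroblasts was lower in females by a log2 difference of -0.86 (SE 0.202, edgeR adjusted p = 0.506). It passed the threshold without the male hyperoxia library (log2 difference -0.9). Without the female room air library of day 21, Igf2 in matrix fibroblasts (-1.06) and Meg3 in alveolar macrophages (-1.43) passed, both lower in females.

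Whether the change after hyperoxia differed between the sexes was tested with an interaction term over all 6 libraries, in 97 pairs. Mest in myofibroblasts was the only pair called, where 0.428% of all pairs were called. It had 45.4 and 26.4 CPM at day 1, 0 and 0 CPM at day 21 in room air, and 4.72 and 22.9 CPM after hyperoxia, from 4 and 18 UMIs. The fitted log2 term was -3.04 (SE 0.765, edgeR adjusted p = 0.0244). With 0 UMIs in both room air libraries at day 21 no change was measured in either sex, and the fit takes its sex difference from the day 1 libraries, so no difference between the sexes in the effect of hyperoxia is read from it. The markers of endothelium given above for myofibroblasts moved with these values. Without doublets Mest was at 2.86 and 4.76 CPM and the fitted term was -1.44 (edgeR adjusted p = 0.946). Without the cells lacking Xist it could not be tested, since fewer than 50 myofibroblasts remained in the female hyperoxia library.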

How the data were processed

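The deposited files held UMI counts per gene and barcode, made by the authors with Cell Ranger, version 6.0.0 at day 1 and 7.0.1 at day 21, per the file headers. The submitters' processing notes list Cell Ranger 6.0.0, Seurat 4.1.1 and mm10. Whether reads in introns or strand were counted is not given in the sources used here. Cell classes were the authors' deposited cluster names, and barcodes without one stayed out except in 1 alternative. For each class, UMIs of its cells were added up within a library, and a class entered a test when each library of that test had 50 of its cells or more. Low genes were removed by filterByExpr, and TMM gave the scaling. Tests were run in edgeR 4.0.16 under R 4.3.3 (glmQLFit and glmQLFTest), with Benjamini-Hochberg adjustment over all genes of a class, and an adjusted p under 0.05 was a call. The standard error is the log2 change divided by the root of its F value. Each group had 1 library of 3 pooled mice, so the tests rest on 1 or 2 residual degrees of freedom and on the spread between sexes or conditions.

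The members and the gene lists were chosen with earlier results of these data known. All 10 members are named, and of the lists at most the 4 genes with the largest and the 4 with the smallest change in a class with a call. Genes named beside these (Airn, Copg2, Rian, Ndn, Igfbp3, Igfbp6, Igfbp7) were chosen after their values were seen. The fits were tried on simulated counts of gCap only, with changes set in genes with many UMIs. That trial does not cover the shallower classes or the low counts on which the immune calls rest. Alternatives tried were a fit with DESeq2 1.42.0, scaling by the upper quartile, all genes kept, no covariate, all 6 libraries in 1 fit, each library left out (for hyperoxia and age without the term for sex), doublets left out (Scrublet as run in scanpy 1.11.5), only cells with 1000 genes or more and mitochondrial UMIs of 10% or less, classes of at least 20 cells, the female hyperoxia library without cells lacking Xist, and scaling on genes with little intron. Leaving out immune cells with endothelial UMIs, and the matrix fibroblast richest in Meg3, was added after seeing the data. Likeness was Pearson's r of log2(CPM + 1), and shares of cells were compared after thinning to 2000 UMIs.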

Additional observations from a re-analysis of the deposited data

Results flagged for a closer look

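Mest in myofibroblasts passed the threshold of the test for a sex difference in the change after hyperoxia, with a fitted log2 term of -3.04 (SE 0.765, edgeR adjusted p = 0.0244), but this term is not a difference of measured changes. The female hyperoxia library held 4 UMIs of Mest in 73 myofibroblasts and the male hyperoxia library 18 UMIs in 68, while both room air libraries at day 21 held 0. The sex difference that the fit subtracts therefore comes from the day 1 libraries (45.4 and 26.4 CPM), which saw no hyperoxia. In the male hyperoxia library 27.8% of the Mest UMIs lay in 1 cell. DESeq2 gave a fitted term of -3.04 with an adjusted p of 1.0, upper-quartile scaling an edgeR adjusted p of 0.17 and the stricter cell filter one of 0.065. Endothelial markers moved with it, as given in the report, and their part was not tested.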

How the results depend on the processing

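Hyperoxia calls numbered 7 in the main fit and 1 with DESeq2, 2 without doublets and 12 with no filter on low counts. Without immune cells with endothelial UMIs (added after seeing the data) there was 1. These counts, and those with a library left out, can hold pairs outside the 7. Without doublets the calls were Meg3 in matrix fibroblasts and Peg3 in gCap, which was not among the 7. Leaving out each library in turn, and with it the term for sex, gave 4 to 8, the lowest without the male hyperoxia library. In these fits an arm has 1 library, which is assumed to vary like the other arm. The sex comparison, with 0 calls, gave 3 with no filter and 0 to 3 with each library left out. The added sex calls without the female hyperoxia library were H19 and Igf2 in gCap and Dlk1 in neutrophils, and Igf2 in gCap was also called without the female room air day 21, male hyperoxia or male room air day 21 library (edgeR adjusted p = 0.0413, 0.0037 and 0.0148). The interaction, with 1 call, gave 0 with DESeq2, with the stricter cell filter, with upper-quartile scaling and without doublets, and 0 without cells lacking Xist, where the called pair could not be tested. Library omission left the interaction no residual degrees of freedom, so it was not run. The 75 age pairs lower by 2-fold or more became 77 to 82 with 1 library and the term for sex left out, in the same 10 classes, where more than the 89 pairs passed the filter on low counts. None of the 8 called changes turned its direction in any alternative that could be fitted. The 6 immune pairs could not be fitted without doublets or without immune cells with endothelial UMIs. Those alternatives therefore count for them neither as a lost call nor as a turned direction. In 28 of the 97 fits that were possible a call was lost. The causes of these losses were not tested. Removing the cells lacking Xist does not bear on the age values. No paired analysis was possible because each group had 1 library and the labels carry no replicate numbers. The term for sex in the hyperoxia test matches libraries by sex only. Depth limits the immune calls: in alveolar macrophages Grb10 rested on 13, 13, 36 and 44 UMIs (female and male room air, female and male hyperoxia), and Peg3 on 6, 5, 7 and 16.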
